A study of Mus musculus with 4 samples.

Results

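Integrins are adhesion receptors made of an alpha and a beta chain, and the 10 subunit genes described here, Itgam, Itgax, Itgal, Itgb2, Itgb1, Itga4, Itga5, Itga6, Itgav and Itgb7, are those through which dendritic cells hold to other leukocytes, to endothelium and to matrix. They were chosen by gene name, with earlier results of these data known. All probe sets annotated to them were read, 21 probe sets for 10 of the 12393 genes named on the array. Expression was measured in mouse dendritic cells that carried CD11c and came from IL10-/- animals, an interleukin 10 deficiency that every group shares, media included. Cells were incubated for 6 h with SEA and LPS together (SEA/LPS), with LPS, with SEA or in media alone, and 1 array was measured in each of these 4 groups. LPS is lipopolysaccharide, a component of the outer membrane of bacteria. The labels do not expand SEA, and they name no strain, age, dose, tissue of origin or number of animals or cultures. All 4 samples carry the same lot.

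The beta2 integrins share the chain encoded by Itgb2 (CD18). It pairs with the product of Itgal (CD11a) to form LFA-1, of Itgam (CD11b) to form Mac-1 or complement receptor 3, and of Itgax (CD11c) to form complement receptor 4. The chain encoded by Itgb1 (CD29) pairs with that of Itga4 to bind VCAM-1, with that of Itga5 to bind fibronectin and with that of Itga6 to bind laminin. It also pairs with the product of Itgav, which has several beta partners and takes part in uptake of apoptotic cells and in activation of latent TGF-beta. Itgb7 pairs with Itga4 in the receptor for the gut addressin MAdCAM-1. Integrins do not hold their ligands firmly until talin and kindlin bind the tail of the beta chain, a step driven by the small GTPase Rap1.

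The values are the deposited signals, a linear array intensity per probe set. A signal at or under 33.3, the 40th percentile of all values, was treated as a floor. A gene was read from its brightest probe set and was called higher or lower at a difference of 2-fold or more, a log2 difference of 1, with the brighter array above the floor. With 1 array a group no test was possible, the number of arrays limits the precision, and no difference below has a replicate check. Brightness differs between probe sets for technical reasons, so no level of a subunit is set against that of another.

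The promoters of subunits that were called in the same comparison and direction are shown first, as the sequence context of the members the results turn on. They are the 250 bases before the RefSeq start, on the gene's strand and 5′ to 3′, in build GRCm38.p6. Itgam (chr7:128062390-128062639, plus strand) was called lower with LPS, as was Itga6. Itga5 (chr15:103366792-103367041, minus strand) and Itgav (chr2:83724147-83724396, plus strand) were called lower with SEA/LPS than with LPS, as was Itgal. Capitals mark every match to GAGGAA, the core of PU.1 sites, and GGGCGG, the core of Sp1 sites, on either strand, so that TTCCTC and CCGCCC are the same letters read on the other strand.
Itgam: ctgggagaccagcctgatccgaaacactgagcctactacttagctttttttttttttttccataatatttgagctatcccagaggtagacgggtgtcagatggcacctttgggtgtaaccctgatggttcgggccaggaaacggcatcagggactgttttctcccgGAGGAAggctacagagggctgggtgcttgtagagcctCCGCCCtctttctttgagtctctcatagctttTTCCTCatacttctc
Itga5: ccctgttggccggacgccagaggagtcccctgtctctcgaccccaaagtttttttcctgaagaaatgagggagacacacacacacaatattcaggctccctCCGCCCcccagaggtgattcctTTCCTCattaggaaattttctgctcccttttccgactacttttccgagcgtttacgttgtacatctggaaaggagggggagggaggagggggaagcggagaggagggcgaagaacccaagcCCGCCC
Itgav: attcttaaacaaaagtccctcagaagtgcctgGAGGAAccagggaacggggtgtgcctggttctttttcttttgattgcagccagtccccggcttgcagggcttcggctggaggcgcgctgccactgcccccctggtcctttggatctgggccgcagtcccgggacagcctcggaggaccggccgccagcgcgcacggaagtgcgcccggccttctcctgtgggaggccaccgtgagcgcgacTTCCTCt
The Itgam window held GAGGAA 84 bases before the start and, on the other strand, 15 bases before it, with GGGCGG on the other strand at 47. PU.1 is a transcription factor of myeloid cells. The Itgav window held GAGGAA at 218 and, on the other strand, at 7, and no GGGCGG. The Itga5 window held GAGGAA once, at 127 on the other strand, and GGGCGG on the other strand at 149 and 6. No matches overlapped one another, and TATAAA, the TATA box, was in none of these windows. Of 32851 promoter windows of this length, 23.3% held GAGGAA, 32.7% GGGCGG and 12.4% TATAAA. A match is a description of letters and shows no binding.

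All 4 arrays had been scaled to the same mean, with trimmed means from 150.06 to 150.07, so a difference in total RNA between groups cannot be seen. The 18 hybridisation controls were brighter by 0.31 log2 with SEA/LPS, 0.55 with LPS and 0.09 with SEA than in media. The Gapdh controls gave 3′ over 5′ ratios of 3.12 with SEA/LPS, 2.42 with LPS, 2.69 with SEA and 2.21 in media. Of 15 dendritic cell markers other than the members, 14 were above the floor on at least 1 array, among them Cd74 (8639 to 11233 over the 4 arrays), H2-Aa (5483 to 6220) and Csf2ra (1754 to 2239), while Flt3 (30.7 to 62.2) and Cd209a (36.3 to 49.8) lay near the floor and Dpp4 was at it. With LPS over media 2 of these 14 markers were called higher, Irf8 (1.96 log2) and Ccr7 (1.99), beside 6.06% of all measured genes. Csf2rb (-1.19) was the 1 called lower, beside 8.43%. With SEA/LPS over LPS 2 markers were called lower, beside 3.47% of measured genes, H2-Ab1 (-1.24 log2) and Irf8 (955 with SEA/LPS, 1911 with LPS). The T cell genes Cd3d, Cd3e, Cd3g and Cd2 and the B cell genes Cd79b and Pax5 were at the floor on every array. The 4 T cell markers that were measured, Cd247, Cd5, Cd28 and Thy1, read at most 50.2 on the probe set used.

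**Figure D1:**
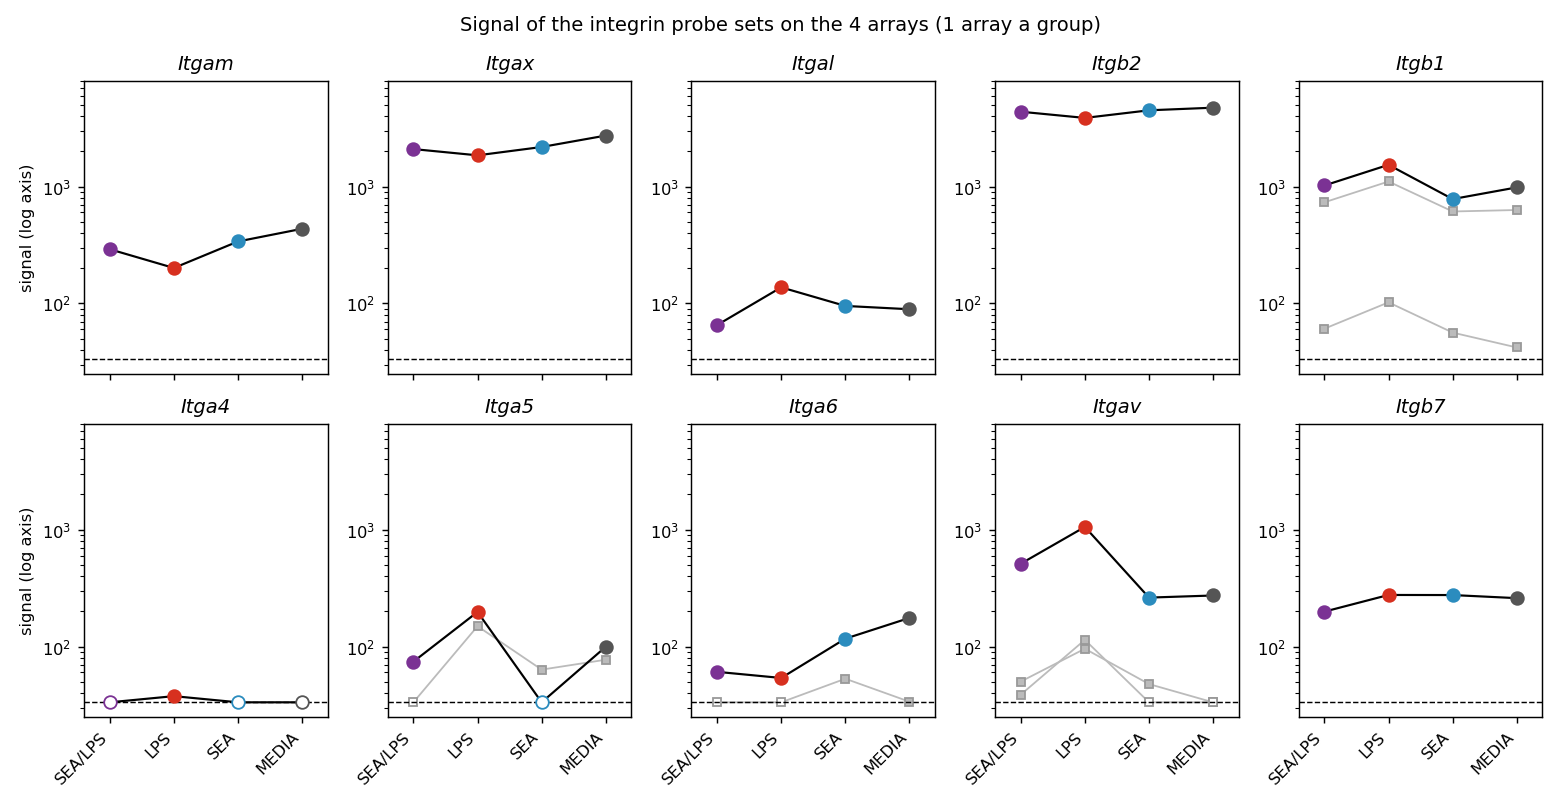
Signal of each integrin probe set (y axis, log scale) on the SEA/LPS, LPS, SEA and MEDIA arrays (x axis), 1 array a group and 1 panel a gene. Large coloured circles joined by a black line are the probe set read for the gene, small grey squares its other probe sets above the floor on at least 1 array, open symbols values at the floor, and the dashed line the floor of 33.3. The black lines of Itgav, Itga5, Itgal and Itgb1 peak on the LPS array, while those of Itgam, Itgax, Itgb2 and Itga6 are lowest there.

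On the probe sets used, LPS over media was the comparison with the farthest differences among the integrins. Itgav was 3.86-fold higher with LPS, and Itga6 and Itgam were 3.26-fold and 2.16-fold lower. The other members lay within 2-fold, with Itga5, the fibronectin receptor chain, just inside at 1.98-fold higher. Of the 10 members, 1 was thus called higher, against 6.06% of the 9473 measured genes, and 2 were called lower, against 8.43%. Scaling to the 75th percentile gave 2 higher and 1 lower, with Itga5 (1.13 log2) past the threshold and Itgam (-0.98) inside it, and scaling to the hybridisation controls gave 1 higher and 3 lower, with Itgax (-1.11) past it. The members' median log2 difference was 0.13, beside -0.06 over all measured genes.

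Itgav, the alpha-V chain, read 1055 with LPS and 273 in media, a log2 difference of 1.95. It read 511 with SEA/LPS and 262 with SEA, so both arrays with LPS lay above both without. Its other probe sets were at the floor in media and gave bounds, at least 3.42-fold (114 with LPS, 23.3 in media) and at least 2.87-fold higher (95.7 and 26.7). All 3 probe sets of Itgav therefore read higher with LPS. Of all measured genes, 1.86% had a difference at least this high. Among genes listed as markers of other cells, Blnk, a B cell adaptor, was also higher with LPS (1.71 log2), as was Kdr, an endothelial receptor (1.83). The 4 of 7 B cell markers that were measured summed to 1252 with SEA/LPS, 1553 with LPS, 545 with SEA and 551 in media. Most of that sum is Blnk (1159, 1417, 436 and 432 in that order), and Cd79a, Ms4a1 and Cr2 lay between 19.6 and 54.9. The 4 of 7 fibroblast and endothelial markers measured summed to 418, 647, 350 and 258 in that order, of which Kdr read 265, 442, 147.5 and 125, with Pecam1, Pdgfra and Col3a1 at the floor on every array. The part of such cells in the Itgav signal was not tested. In bulk RNA, fewer cells of a type and less RNA per cell cannot be told apart.

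Itgb1, the common partner of the alpha chains that bind matrix, read 1535 with LPS and 984 in media, 1.56-fold higher and under the threshold. It read 1022 with SEA/LPS and 782 with SEA. Of its 6 probe sets 3 were at the floor on every array. The other 3 all read higher with LPS, by 0.64, 0.81 and 1.28 log2, the last on a dim probe set (102 with LPS, 42.0 in media). That last value alone is past the threshold. It comes from a probe set marked as able to cross-hybridise, as does the 0.64 of the probe set used. The probe set that gave 0.81 is not so marked.

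Itga5 read 198 with LPS and 99.6 in media on the probe set used, and 149 against 77.1 on the other. The log2 differences were 0.99 and 0.95, so its probe sets gave nearly the same size, on the inner side of the threshold. Itga4, the chain shared by the VCAM-1 and MAdCAM-1 receptors, stood at 37.6 with LPS and was at the floor on the SEA/LPS, SEA and media arrays. The remaining 2 of its 3 probe sets were at the floor on every array. No fold is drawn from a signal this close to the floor beyond its bound of at least 1.13-fold. With the floor at the 25th percentile the Itga4 bound was 1.38 log2, and with no floor the difference was 1.46. Both were past the threshold, so the call of Itga4 depends on the floor. Itgb7 read 276 with LPS and 259 in media, a log2 difference of 0.09, or -0.46 under scaling to the hybridisation controls.

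Itga6, the laminin receptor chain, read 53.8 with LPS and 175.6 in media, a log2 difference of -1.71. It read 60.7 with SEA/LPS and 117 with SEA, so both arrays with LPS lay below both without. Its other probe set was at the floor on both arrays with LPS and read 53.0 with SEA and 33.7 in media, just above the floor, so it could not show a difference of this size. The mean of both probe sets gave -0.86, inside the threshold. The 4 of 5 platelet markers that were measured summed to 3217 with SEA/LPS, 2593 with LPS, 4609 with SEA and 3892 in media. Most of that sum is Pf4 (2431, 2020, 3394.5 and 2920 in that order). Ppbp, a platelet chemokine, was called lower with LPS (-1.21 log2), while Pf4 read -0.53, Gp9 -0.16 and Itga2b 0.67. Itga2b, the platelet integrin chain, read 106, 152, 118 and 96.0 in that order. The part of platelet RNA in the Itga6 signal was not tested.

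Within the beta2 family, Itgam read 201 with LPS and 435 in media, a log2 difference of -1.11. It read 291 with SEA/LPS and 339 with SEA, and the LPS array was thus the lowest of the 4. Itgax, the gene of the marker by which the cells are labelled, read 1851 with LPS and 2732 in media, 1.48-fold lower, and 2093 with SEA/LPS and 2181 with SEA. Its signal on all 4 arrays lay far above the floor. Itgam and Itgax lie side by side on mouse chromosome 7, with 0 protein-coding genes between them in the RefSeq gene table of GRCm38.p6. Itgb2, the chain they share, read 3868 with LPS and 4732 in media, a difference of -0.29 log2. Itgal, on the same chromosome, went the other way, with 137 with LPS and 89.2 in media (0.62 log2). The 4 of 7 macrophage markers measured had a median of 0.19 log2 with LPS over media. Called were 0, beside 6.06% of all measured genes called higher and 8.43% lower. Of these 4 markers 3 were above 0 and Adgre1 was at -0.13. They summed to 2008 with SEA/LPS, 1541 with LPS, 1232 with SEA and 1271 in media. The 6 of 8 neutrophil markers measured, most of whose signal is Mmp8, summed to 2494 with SEA/LPS, 2008 with LPS, 2809 with SEA and 3097 in media, with S100a9 and Camp at the floor on every array. Mmp8 read -0.85 log2 with LPS over media, the other 5 were above 0 and the median was 0.42. Beside the same shares of all genes, 0 neutrophil markers were called. Their part in the Itgam signal was not tested.

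**Figure D2:**
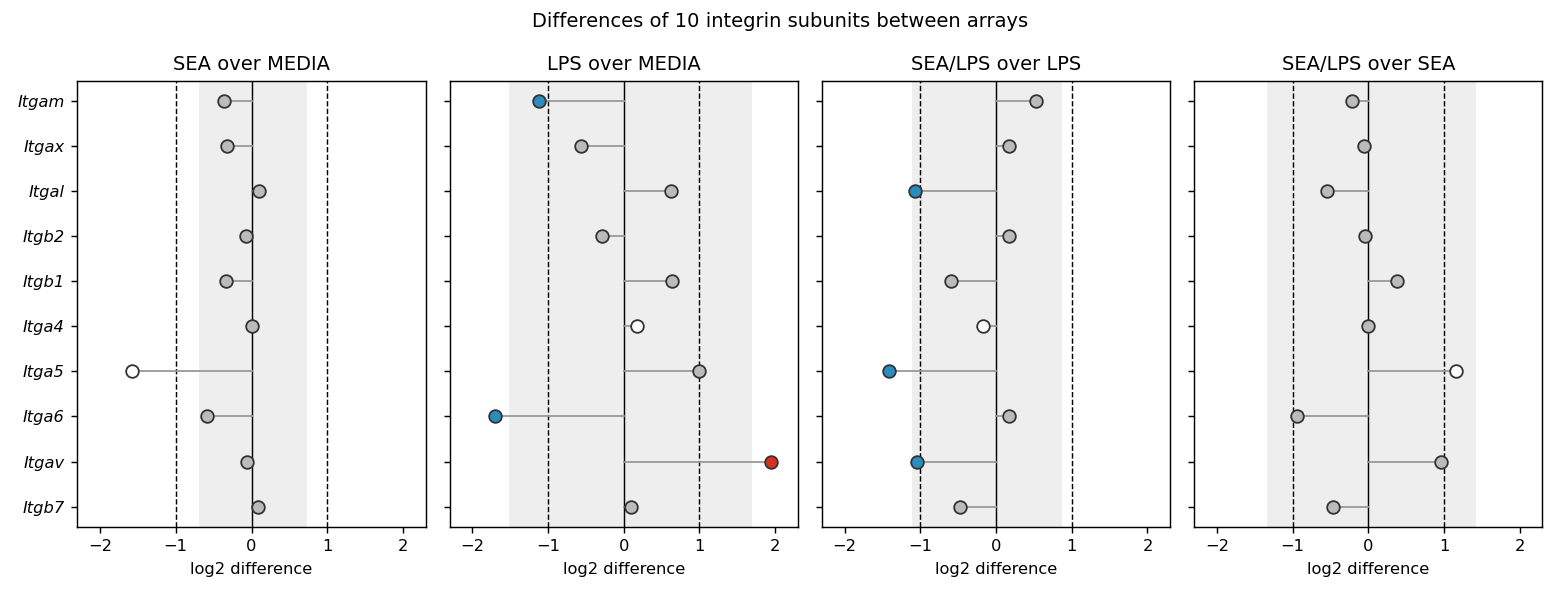
Log2 differences (x axis) of the 10 integrin genes (y axis) in 4 comparisons between arrays, 1 array a group. Red circles were called higher, blue circles lower, grey circles neither, and open circles have only 1 array at the floor and are bounds. Itga4 with SEA over MEDIA and with SEA/LPS over SEA had both arrays at the floor and is a grey circle at 0. Dashed lines mark 2-fold and the grey band holds the range of the central 95% of all measured genes. Itgav with LPS and Itga6 with LPS lie outside the band, as does Itga5 in the SEA and the SEA/LPS over LPS comparisons.

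SEA alone left the integrins close to their signals in media, apart from Itga5. The probe set used for Itga5 was at the floor with SEA (28.9) and read 99.6 in media, at least 2.99-fold lower. The other Itga5 probe set read 63.4 with SEA and 77.1 in media, a difference of only -0.28 log2, so the call rests on a single probe set, which is marked as able to cross-hybridise. It was the 1 member called lower of 10, against 0.633% of measured genes, and 0 members were called higher, against 0.644%. Itga6 followed at -0.59 log2 (117 with SEA, 175.6 in media), but its other probe set read 0.65.

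The beta2 chains differed little between SEA and media. Itgam was at -0.36 log2 (339 with SEA, 435 in media), Itgax at -0.32, Itgb2 at -0.07 and Itgal at 0.09. Itgb1 read -0.33 on the probe set used, with -0.04 and 0.42 on the others above the floor. Itgav and Itgb7 lay at -0.06 and 0.09, and Itga4 was at the floor on both arrays. Of the 10 members 7 were below 0, and their median was -0.20 beside 0.00 over all measured genes.

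The effect of SEA in the presence of LPS is read from SEA/LPS over LPS. Itga5 was lower with SEA/LPS by 2.66-fold, Itgal by 2.10-fold and Itgav by 2.07-fold. The 3 members called lower of 10 stand beside 3.47% of measured genes called lower in this comparison, and the 0 called higher beside 1.39%, and the members' median was -0.32 beside -0.01. The comparison shares its LPS array with LPS over media, so a high or low reading of that array enters both with opposite signs.

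Itga5 read 74.2 with SEA/LPS and 198 with LPS on the probe set used. The other probe set was at the floor with SEA/LPS (17.9) and read 149 with LPS, at least 4.48-fold lower. Both probe sets of Itga5 were thus past 2-fold in the same direction. Itgav read 511 with SEA/LPS and 1055 with LPS, a difference of -1.05 log2, and its other probe sets read -1.56 and -0.93. Scaling to the 75th percentile gave Itgav -0.98 and scaling to the hybridisation controls -0.81, both inside the threshold. Itgal, the LFA-1 alpha chain, read 65.3 with SEA/LPS, 137 with LPS, 95.2 with SEA and 89.2 in media, so the SEA/LPS array was the lowest of the 4. Its difference of -1.07 log2 comes from 1 probe set and ranged from -0.83 to -1.07 over the settings tried, inside the threshold under 4 of them.

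Itgb1 read -0.59 log2 with SEA/LPS against LPS, with -0.59 and -0.75 on its other probe sets above the floor. Itgb7 lay at -0.47 (199 with SEA/LPS, 276 with LPS), its lowest signal of the 4 arrays. Itgam was 1.45-fold higher with SEA/LPS than with LPS (0.53 log2), inside the threshold. Itgax and Itgb2 were at 0.18 each and Itga6 at 0.17, from 60.7 with SEA/LPS and 53.8 with LPS.

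**Figure D3:**
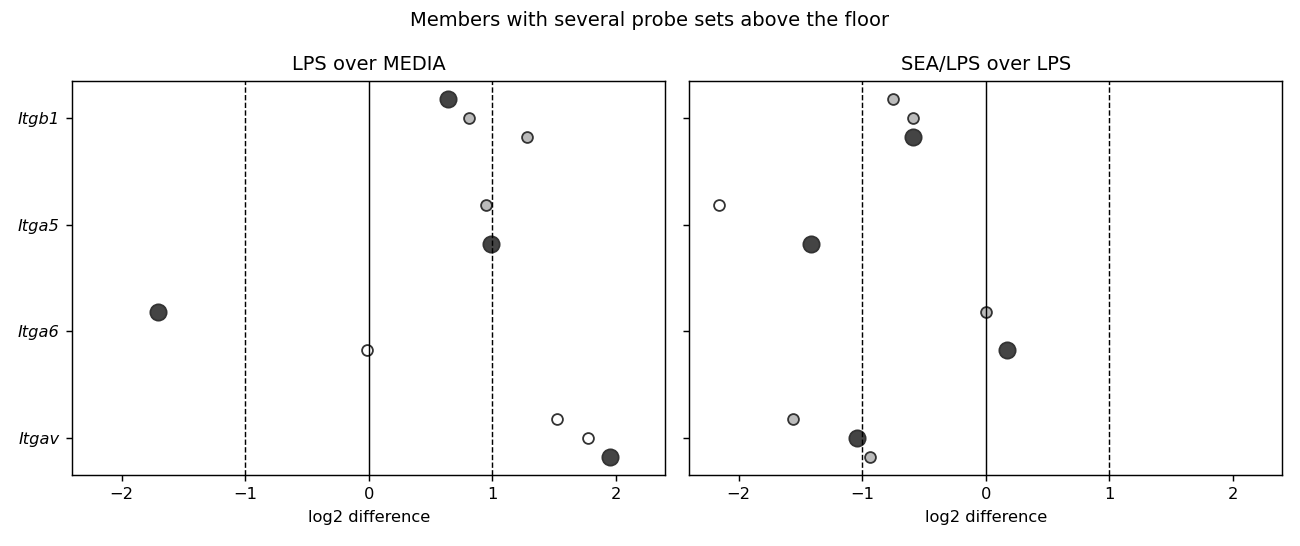
Log2 differences (x axis) on every probe set above the floor on at least 1 array, for the 4 members with several such probe sets (y axis), in LPS over MEDIA (left) and SEA/LPS over LPS (right). Large dark circles are the probe set read for the gene, small grey circles the others, open circles bounds with only 1 array at the floor, and dashed lines 2-fold. All 3 probe sets of Itgb1 and of Itgav and both of Itga5 lie right of 0 on the left and left of 0 on the right. The second probe set of Itga6 lies near 0 on the left, as a bound. On the right both of its arrays were at the floor, so its filled circle at 0 is set by the floor. The panels share the LPS array.

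SEA/LPS over SEA gives the LPS difference in cells that also met SEA, on arrays that LPS over media does not use. Itgav was 1.95-fold higher with SEA/LPS than with SEA (511 and 262), just inside the threshold, and its other probe sets gave at least 1.16-fold higher (38.7 with SEA/LPS, at the floor with SEA) and 0.07 log2 (50.1 and 47.7). Itga6 was 1.92-fold lower (60.7 and 117). Itga5 was at least 2.23-fold higher, the 1 member called higher beside 4.67% of measured genes, with 0 called lower beside 6.38%, but its other probe set was at the floor with SEA/LPS and at least 1.90-fold lower. The direction of Itga5 in this comparison therefore differs between its probe sets. Itgb1 was at 0.39, Itgam at -0.22, Itgax at -0.06, Itgb2 at -0.04, Itgb7 at -0.47 and Itgal at -0.54 log2, and the members' median was -0.05 beside -0.15 over all measured genes.

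The SEA difference with LPS minus the SEA difference without it was past 1 log2 in size for Itgal alone, at -1.17, and Itgav lay just inside at -0.99. Of all measured genes 9.7% were past 1 in size. Itgam (0.89), Itga6 (0.76) and Itgax (0.50) had the highest positive values. Itga5, lower with SEA both with and without LPS on the probe set used, had 0.17. Its sign turned under other settings, to -1.88 without probe sets able to cross-hybridise, -0.86 with the mean of its probe sets and -0.99 with the floor at the 60th percentile. Itgal fell inside, at -0.84, when scaled to the hybridisation controls, where Itgam (1.22) and Itga6 (1.09) passed 1 instead.

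The genes whose pattern over the 4 arrays was most like that of a called member were found by the Euclidean distance of log2 signals centred on each gene's mean, among 7141 other genes above the floor on all 4 arrays. For Itgav these were Irf8, a transcription factor of dendritic cells (distance 0.14), Tapbp, the chaperone tapasin (0.19), and Cnn3, an actin-binding calponin (0.20). Irf8 read 955 with SEA/LPS, 1911 with LPS, 531 with SEA and 489.6 in media, so that it too peaked on the LPS array. Ctage5, Otud6b and Psat1 were closest to Itgam (0.03, 0.05 and 0.05). Closest to Itgal were 1110051M20Rik, Ret and Plppr2 (0.06, 0.06 and 0.08), and closest to Itga6 were Nifk, Agap3 and Hacd1 (0.08, 0.15 and 0.15). Itga5 had an array at the floor and was not matched. With 4 arrays such likeness is a description only.

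Of 16 other integrin subunits 11 were named by a single-symbol probe set and 6 of these were above the floor on at least 1 array, and Itgae, Itgb3, Itgb4, Itga7 and Itga8 were at the floor on every array. Itgb5, a beta partner of the alpha-V chain, was the 1 called, 2.14-fold lower with LPS (352 with LPS, 753 in media). That is 1 of 6 called lower and 0 higher, beside 8.43% and 6.06% of measured genes. All 4 probe sets of Itgb5 read lower with LPS, with log2 differences between -0.45 and -1.34. The probe set used gave -0.96 when scaled to the 75th percentile, inside the threshold. With SEA over media 0 of 6 were called, beside 0.644% of measured genes called higher and 0.633% lower. With SEA/LPS over LPS it was 0 beside 1.39% and 3.47%, and with SEA/LPS over SEA 0 beside 4.67% and 6.38%.

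Of 21 listed genes that act on the activation of integrins 19 were measured. With LPS over media 4 were called lower and 0 higher, beside 8.43% and 6.06% of all measured genes, 9 were above 0 and 10 below, and the median was -0.03. Fermt3, kindlin-3, which binds beta tails in blood cells, read 377 with LPS and 1073 in media, -1.51 log2, with -1.57 and -1.60 on its other probe sets. Rassf5, also called RAPL, a Rap1 effector that binds LFA-1, was at -1.52 and Flna, filamin A, which competes with talin for beta tails, at -1.52. Rap1gap, which turns Rap1 off, was the lowest at -1.90. Tln1, talin-1, lay inside at -0.94, while Rap1b was at 0.70 and Rap1a at -0.54. With SEA/LPS over LPS the 1 gene called was Apbb1ip, the Rap1 effector RIAM that recruits talin, 3.25-fold lower (109.6 with SEA/LPS, 356 with LPS), beside 3.47% of measured genes called lower, and the median was -0.01. With SEA/LPS over SEA 4 were called lower and 0 higher, beside 6.38% and 4.67%, and the median was -0.35. They were Rap1gap (at least 5.74-fold), Rassf5 (-1.25 log2), Fermt3 (-1.09) and Apbb1ip (-1.01). Scaling to the 75th percentile put Fermt3 (-0.89) and Apbb1ip (-0.80) inside the threshold, and quantile normalization Apbb1ip (-0.81). SEA over media had 0 of 19 called, beside 0.644% of measured genes called higher and 0.633% lower, so a count of 0 says little.

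Of 27 adaptors and actin-linked genes 23 were measured, and with LPS 2 were called higher and 2 lower, beside 6.06% and 8.43% of all measured genes, and the median was -0.08. Fscn1, the actin bundler of mature dendritic cells, was at 3.11 log2, and Actn1, alpha-actinin, which joins integrins to actin, at 1.23, with 1.66 and 1.39 on its other probe sets. Ilk, the integrin-linked kinase, was at -1.55 and its partner Parvg, a parvin, at -1.13, though the second Parvg probe set read 0.23. Ilk was the 1 gene of this list called with SEA/LPS over LPS, 2.03-fold higher (597.5 with SEA/LPS, 294 with LPS), beside 1.39% of measured genes called higher. No gene of this list was called with SEA over media on the probe set used, beside 0.644% of measured genes called higher and 0.633% lower. With SEA/LPS over SEA Fscn1 (2.87 log2) was the 1 called higher and 0 were called lower, beside 4.67% and 6.38% of measured genes.

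Ligands had 18 of 29 listed genes measured. With LPS the 1 called, beside 6.06% of measured genes called higher, was Vcam1, the ligand of the Itga4 and Itgb1 pair, at least 3.03-fold higher (101.0 with LPS, at the floor in media), which its other probe set above the floor read as 0.22 log2. Icam1, the ligand of LFA-1 and Mac-1, read 2711 with SEA/LPS, 2126 with LPS, 929 with SEA and 1227 in media, 1.73-fold higher with LPS than in media and 2.92-fold higher with SEA/LPS than with SEA. Fn1, fibronectin, lay between 5376 and 6252 on the 4 arrays. SEA/LPS over LPS had 0 of 18 called, beside 1.39% of measured genes called higher and 3.47% lower. With SEA/LPS over SEA 2 were called higher, Icam1 and Vcam1, and 0 lower, beside 4.67% and 6.38% of measured genes. Vcam1 was at least 2.28-fold higher there, which its other probe set read as -0.01 log2.

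Membrane proteins that associate with integrins had 16 of 17 measured. With LPS, Cd47, the integrin-associated protein, was 2.37-fold higher, a log2 difference of 1.25 that its other probe sets above the floor in this comparison read as 0.90 and 0.38, inside the threshold. Slc3a2, the CD98 heavy chain that binds beta tails, was 2.07-fold higher. Cd37, a leukocyte tetraspanin, was 4.68-fold lower and Adam8, a membrane metalloprotease, 2.28-fold lower. The Cd37 signal with LPS (37.8) lay near the floor. Its other probe set was at the floor with LPS (25.3) and read 66.4 in media, a bound of -0.996 log2. That probe set read 1.06 log2 with SEA/LPS over LPS, against -0.18 on the one used. With SEA/LPS over LPS, Bsg, or CD147, was 3.49-fold lower, the tetraspanin Cd81 2.36-fold and Plaur, the urokinase receptor that pairs with Mac-1, 2.08-fold lower, and Adam8 was 2.04-fold higher. In all, 2 were higher and 2 lower with LPS, beside 6.06% and 8.43% of measured genes. With SEA/LPS over LPS 1 was higher and 3 were lower, beside 1.39% and 3.47%. With SEA over media 0 of 16 were called, beside 0.644% higher and 0.633% lower. With SEA/LPS over SEA 1 was higher, Cd47 (1.37 log2), beside 4.67% of measured genes. Called lower were 2, Bsg (-1.50 log2) and Cd37 (at least 2.98-fold), beside 6.38%, though the other Cd37 probe set read -0.19. The list medians with LPS over media lay between -0.26 and 0.06 as deposited. Scaling to the hybridisation controls put them between -0.64 and -0.33, with the median of all genes at -0.56 in place of -0.06. Some calls with LPS over media or SEA/LPS over LPS named in these lists fell inside the threshold when rescaled. Under the hybridisation controls these were Actn1 (0.68), Cd47 (0.70) and Slc3a2 (0.50) with LPS and Cd81 (-0.999) and Plaur (-0.82) with SEA/LPS over LPS. At the 75th percentile they were, besides Itgb5, Parvg with LPS (-0.99) and Plaur with SEA/LPS over LPS (-0.99). Under quantile normalization they were Slc3a2 with LPS (0.77) and Ilk (0.92) and Adam8 (0.98) with SEA/LPS over LPS.

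**Figure D4:**
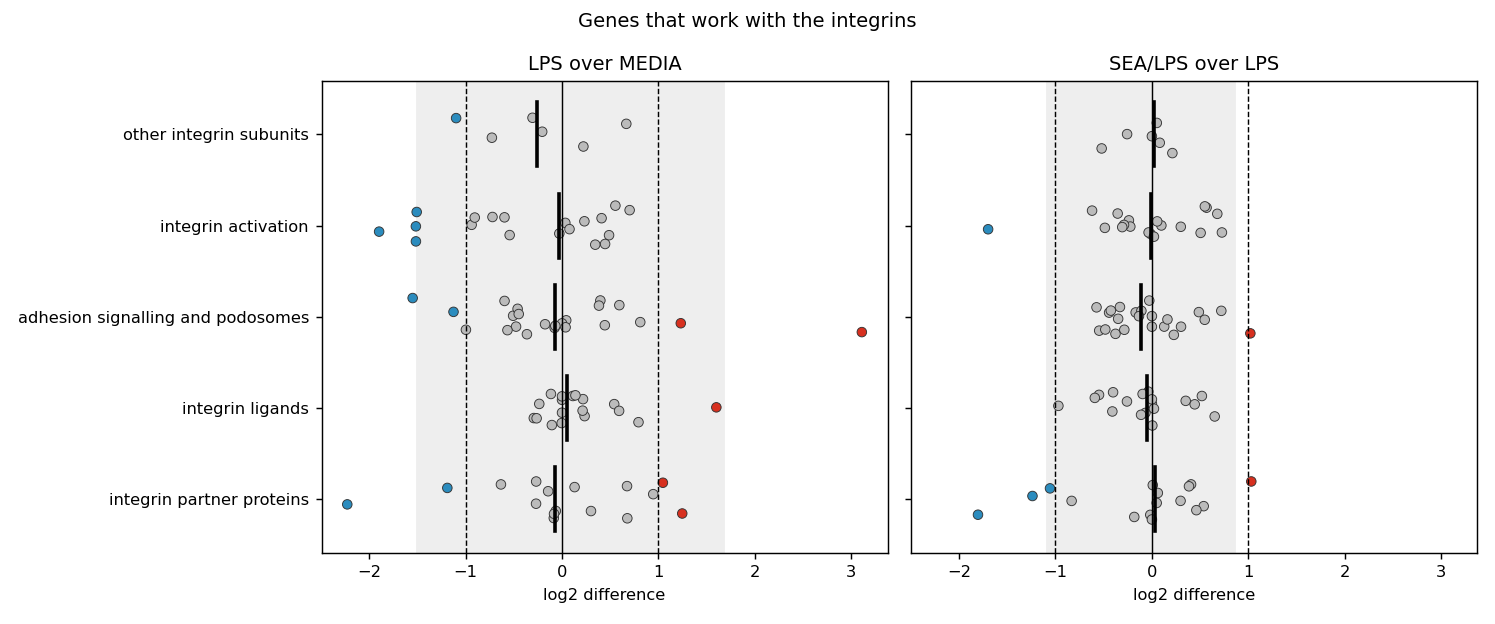
Log2 differences (x axis) of the measured genes of 5 lists of integrin-related genes (y axis) in LPS over MEDIA (left) and SEA/LPS over LPS (right), 1 array a group. Each circle is a gene, red where called higher, blue where called lower and grey otherwise; thick black bars are list medians, dashed lines 2-fold and the grey band the range of the central 95% of all measured genes. The 4 called integrin activation genes lie left of -1.5 on the left, while the list medians stay near 0 in both panels.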

How the data were processed

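Total RNA of 4 mouse dendritic cell samples, 1 in each of 4 groups, was measured on Affymetrix arrays. The deposited unit is a linear 1-colour intensity for 22690 probe sets, judged from the values; none is negative, and their trimmed means (2% off each end) are equal. For software, background step and scaling rule, the authors' choice is not stated in any source used here. Of the probe sets, 20380 carried 1 gene symbol in the platform annotation, 691 several and 1555 none (64 others are array controls); several or none were left out. Symbols were updated through Entrez identifiers (20351 matched), which named 12393 genes, 9473 of them measured.

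Values were not rescaled. The floor was the pooled 40th percentile (33.3), to which lower signals were raised, log2 was taken, and a gene took its probe set with the highest mean. A difference against the floor is a bound, written as at least N-fold. The calling step was checked on simulated arrays with known differences, which says nothing about error between samples. No p-value, SD or test was possible with 1 sample a group.

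Alternatives were 3 scalings (75th percentile, quantile, 18 hybridisation controls), floors at the 25th and 60th percentile, log2(value + 16) with no floor, the mean of a gene's probe sets, leaving out probe sets able to cross-hybridise (by suffix) and a 1.5-fold threshold. Named genes are all members, the genes of each list past 2-fold (the 4 farthest where more passed) and the 3 nearest patterns of each called member. Other genes named (Tln1, Rap1a, Rap1b, Fn1, Itga2b, Adgre1 and the markers) were picked after seeing their values, as was Icam1 for LPS over media. The members and lists were chosen with earlier results of these data known. Promoters are from RefSeq (GRCm38.p6), matched by symbol for 7 of 10 members. Python 3.11.15, numpy 2.4.6, pandas 2.3.3 and matplotlib 3.10.9 were used.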

Additional observations from a re-analysis of the deposited data

Results flagged for a closer look

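Itgal stood out because its SEA difference had opposite signs with and without LPS and the gap between them passed 1 log2. The gap was -1.17, from a log2 difference of -1.07 for SEA/LPS over LPS (65.3 and 137) and 0.09 for SEA over media (95.2 and 89.2). The SEA over media difference lay close to 0, at 0.008 when scaled to the hybridisation controls, so a change of direction is not shown. Of all measured genes 9.7% had a gap of 1 log2 or more in size. The difference was not tested, since each group had 1 array, and Itgal has 1 probe set. The gap was -0.84 when scaled to the hybridisation controls, -0.96 with the floor at the 60th percentile and -0.995 with no floor, all inside 1.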

How the results depend on the processing

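No paired analysis was possible because each group had 1 sample, and leaving out a sample leaves no comparison. Counts of members called changed by more than 1.5 times as follows. For SEA over media, 1 member became 0 with the floor at the 60th percentile, 0 with the mean of all probe sets, 0 without probe sets able to cross-hybridise and 2 at 1.5-fold. For LPS over media, 3 became 6 at 1.5-fold. For SEA/LPS over LPS, 3 became 1 when scaled to the hybridisation controls. For SEA/LPS over SEA, 1 became 2 when scaled to the 75th percentile, 2 when scaled to the hybridisation controls, 0 with the floor at the 60th percentile, 0 with the mean of probe sets, 0 without probe sets able to cross-hybridise and 3 at 1.5-fold. Departures of 1 log2 or more went from 1 member to 2 under quantile normalization, under scaling to the hybridisation controls (Itgam and Itga6, in place of Itgal), with the mean of probe sets and without probe sets able to cross-hybridise, and to 0 with the floor at the 60th percentile and with no floor. The other 26 counts stayed within 1.5 times. Without probe sets able to cross-hybridise, Itga5 in SEA/LPS over SEA turned to -0.93 from 1.16, since another probe set was then read. Itga4 was not measured with the floor at the 60th percentile or scaled to the hybridisation controls. Scaling set the split of all called genes: 41.8% of those called with LPS over media were higher as deposited, against 55.4% at the 75th percentile and 10.5% under the hybridisation controls; for SEA/LPS over LPS it was 28.6%, against 39.5%, 69.1% and, under quantile normalization, 43.4%; for SEA/LPS over SEA, 42.3%, against 61.8%, 21.99% and 56.3%. Signal close to the floor limits Itga4, Itga5 and Itga6.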
